A study of Caenorhabditis elegans with 4 samples.

Results

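The lin-4 and miR-237 pair was described from the rows of the miRNA table whose name, once the arm suffix is removed, is cel-lin-4 or cel-miR-237. Of the 205 mature miRNAs listed, 4 met this rule. They are both arms of each hairpin, namely lin-4-5p, lin-4-3p, miR-237-5p and miR-237-3p. The rule used names alone and no measured value. Small RNA was sequenced from whole wild-type N2 Bristol *Caenorhabditis elegans*, fed OP50 bacteria, grown at 20°C and taken at L4, the last larval stage. The CTRL group stayed at 20°C and the heat shock group (HS) was brought to 35°C, with 2 libraries each. The labels give the length of the heat shock as 4 h in one field and 6 h in another, and the study's methods for small RNA use the latter. No transgene or mutation was carried by either group, and both came from mixed tissues of the entire animal.

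miRNAs are short RNAs cut from a hairpin precursor as a duplex of a 5p and a 3p arm. One arm, the guide strand, is loaded into an Argonaute protein and pairs with target mRNAs through its seed, the bases near its 5′ end, while the other, the passenger strand, is mostly degraded. lin-4 is the founding miRNA and a member of the heterochronic pathway, which times cell fates through the larval stages. It represses lin-14 and lin-28, whose products hold cells in early larval programmes. miR-237 carries the same seed as lin-4, and this seed family is known in mammals as miR-125.

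Values are the authors' mean over all 4 libraries of read counts divided by DESeq2 size factors (mean normalized count). CTRL and HS are pooled in this mean, so each value describes the experiment as a whole and neither temperature by itself. No value per library was analysed here. The levels therefore have no SD, no test separates one level from another, the depth of the libraries is unknown, and no difference between CTRL and HS is given. Each order of levels below is an order of pooled means and does not fix the order within CTRL or within HS. In whole animals, fewer cells that make a miRNA and less of it per cell cannot be told apart.

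The dominant product of the pair was miR-237-5p, the guide arm of the miR-237 hairpin. Its mean normalized count was 448859, which placed it at rank 10 of 205 miRNAs and made up 4.54% of the summed mean normalized counts of the table. The guide arm of lin-4 was much less abundant. lin-4-5p had a mean normalized count of 34549.5, rank 34, and 0.349% of the sum. Both guide arms lay far above the median miRNA of the table, which stood at 1512, by 297-fold for miR-237-5p and 22.9-fold for lin-4-5p. The table spanned mean normalized counts from 51.5 to 1136489.

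The passenger arms were closer to one another in level than the guide arms were. miR-237-3p, the passenger of miR-237, had a mean normalized count of 936 and rank 119, and lin-4-3p, the passenger of lin-4, had 524 and rank 143. Both were below the table's median, yet neither was low among the less abundant arms that were listed. Among the 73 less abundant arms of hairpins listed with both arms, whose median mean normalized count was 453, miR-237-3p was at rank 26 and lin-4-3p at rank 35. Arms that were not listed do not enter this order, and the lowest listed mean normalized count was 51.5.

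**Figure D1:**
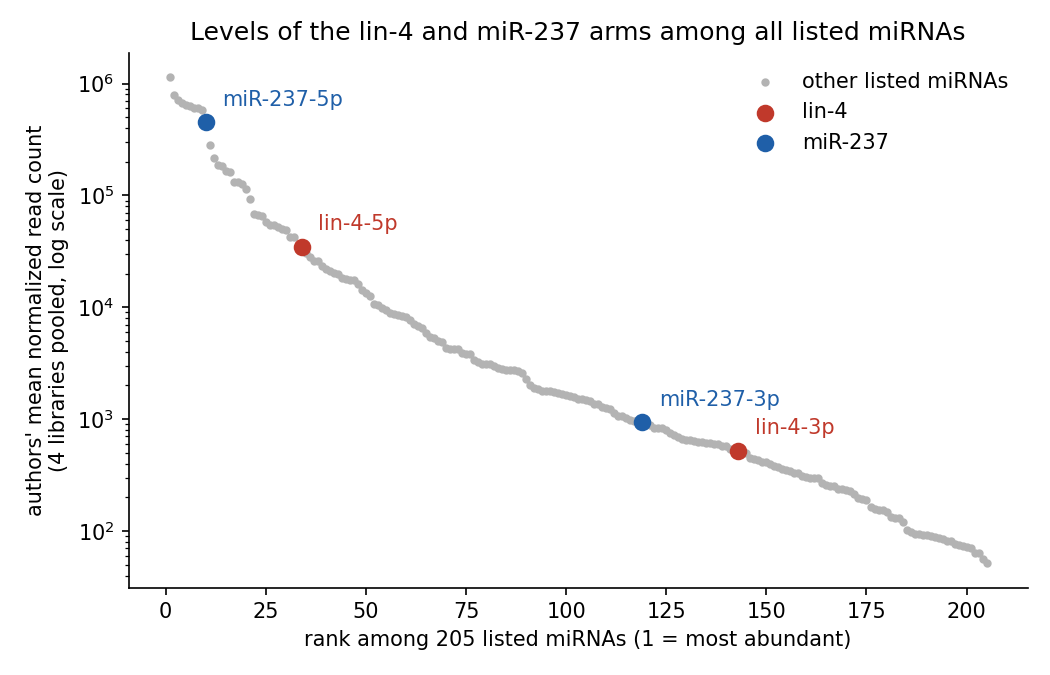
Authors' mean normalized read count (log scale, CTRL and HS libraries pooled) against rank for all 205 listed miRNAs (grey), with the arms of lin-4 in red and of miR-237 in blue. The 5p arms sit at ranks 10 and 34 and the 3p arms at ranks 119 and 143. In level the 3p arms lie closer together than the 5p arms.

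The guide arms thus differed in level by 13.0-fold in mean normalized counts (3.70 on the log2 scale), whereas the passenger arms differed by 1.79-fold. In both cases the miR-237 product was the higher. A small RNA read covers the whole molecule, so a count does not grow with length as it does for mRNA. Divided by the annotated mature length, the ratio of the guide arms was 11.9. Of the reads of the 2 guide arms, which share the seed, miR-237-5p supplied 92.9% and lin-4-5p 7.15%. All 4 arms together held 4.90% of the summed mean normalized counts. Ligation and amplification favour some sequences over others, so these are ratios of reads and not of molecules.

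Levels next to the members in the table show how closely packed they were. miR-228-5p stood directly above miR-237-5p, at a mean normalized count of 582252 (1.30-fold), and miR-81-3p directly below it, at 283592 (1.58-fold). lin-4-5p lay between miR-47-3p at 35390.3 and miR-60-3p at 30532.2, both within 1.13-fold of it. The neighbours of miR-237-3p were miR-231-3p at 969.6 and miR-61-5p at 917, and those of lin-4-3p were miR-4816-3p at 533 and miR-87-5p at 516. The gaps around the passenger arms ranged from 1.01-fold to 1.04-fold. Without values per library, none of these neighbours can be said to differ in level from the member beside it. They were chosen only by their place in the order.

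In both hairpins the 5p arm was the more abundant arm, which was taken here as the guide. The 5p arm was the more abundant arm in 29 of the 73 hairpins listed with both arms, and the 3p arm in the other 44, so lin-4 and miR-237 belonged to the smaller class. The bias towards the guide was steep in miR-237, whose 5p arm exceeded its 3p arm 479-fold. miR-237-3p accounted for 0.208% of the hairpin's mean normalized counts. In lin-4 the 5p arm exceeded the 3p arm 66.0-fold, and lin-4-3p accounted for 1.49% of the hairpin.

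Over the 73 hairpins the ratio of the more to the less abundant arm had a median of 20.8 and ran from 1.01 to 4263. The other listed hairpins, of 132 in all, have no ratio because only 1 arm was listed. Some of their listed arms were abundant, such as miR-57-5p (665208) and miR-236-3p (93212.4), and others were low. The median, the range and the ranks below therefore hold only among hairpins with both arms listed. miR-237 was at rank 10 in this order, between miR-45 (486) and miR-228 (359), and lin-4 was at rank 27, between miR-83 (66.8) and miR-788 (48.5). By level alone, miR-237-5p was at rank 9 and lin-4-5p at rank 29 among the 73 more abundant arms, close to these places. The ratio is computed from that level, so the order of levels and the order of ratios are not independent. Among the 29 hairpins with a more abundant 5p arm, where the median ratio was 7.64, miR-237 was at rank 3 and lin-4 at rank 10. The arm ratio of miR-237 was 7.27 times that of lin-4. This value is the quotient of the 13.0-fold gap between guides and the 1.79-fold gap between passengers, so the higher level of the miR-237 guide raised the ratio and the higher level of its passenger partly offset this.

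**Figure D2:**
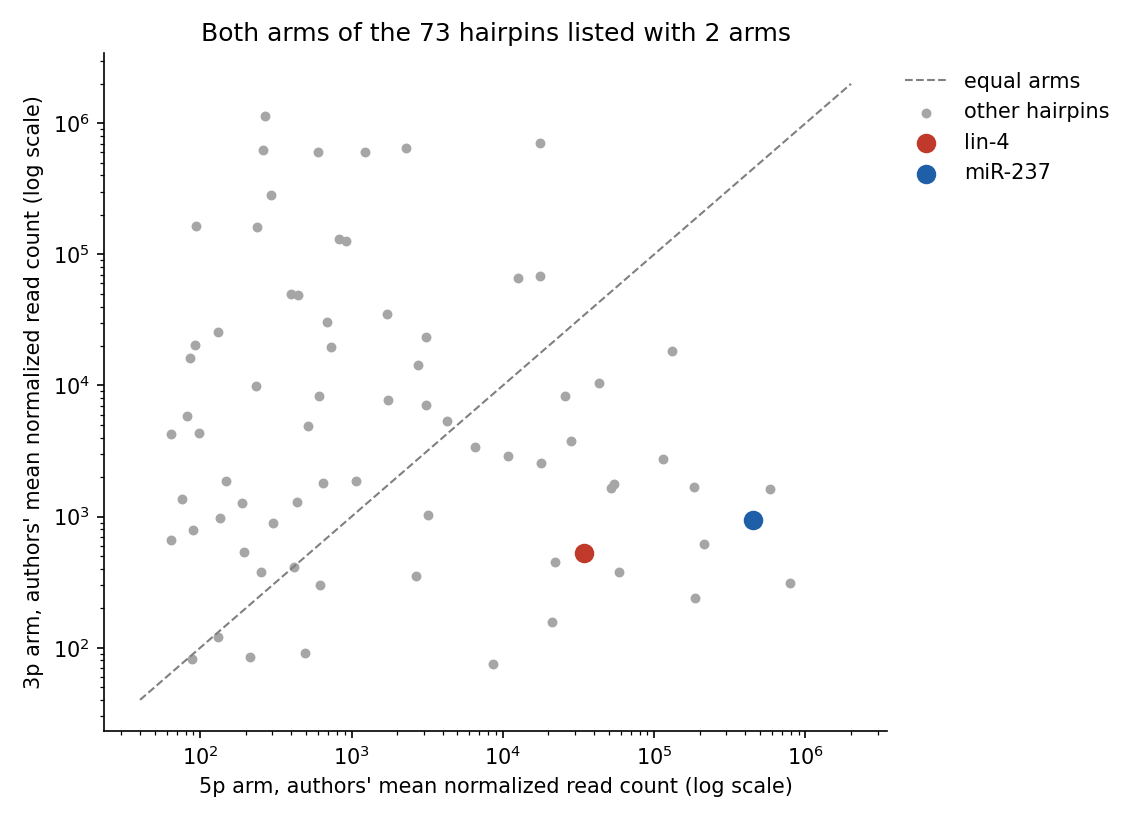
Authors' mean normalized read count of the 3p arm against that of the 5p arm (both axes on a log scale) for the 73 hairpins listed with both arms; the dashed line marks equal arms. lin-4 (red) and miR-237 (blue) lie well below the line, at 524 against 34549.5 and at 936 against 448859, and differ mainly along the 5p axis.

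The guide arms of the pair were next set beside 4 let-7 family members of the heterochronic pathway, let-7, miR-48, miR-84 and miR-241. let-7 drives the switch from larval to adult fates, and miR-48, miR-84 and miR-241 share its seed and act in earlier larval transitions. Any further members of this seed family were not included, as seeds were not analysed here. miR-48-5p had a mean normalized count of 183674, let-7-5p of 54561.6, miR-84-5p of 52209.1 and miR-241-5p of 10734.2. In pooled means miR-237-5p was therefore the most abundant of these 6 guide arms, 2.44-fold above miR-48-5p and 1.49-fold above the sum of the 4 let-7 family arms, which was 301179. lin-4-5p was the second lowest, with let-7-5p 1.58-fold above it. Of the summed mean normalized counts of the 6 guide arms, miR-237-5p held 57.2%, the 4 let-7 family arms 38.4% and lin-4-5p 4.40%. The 6 together held 7.93% of the table.

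**Figure D3:**
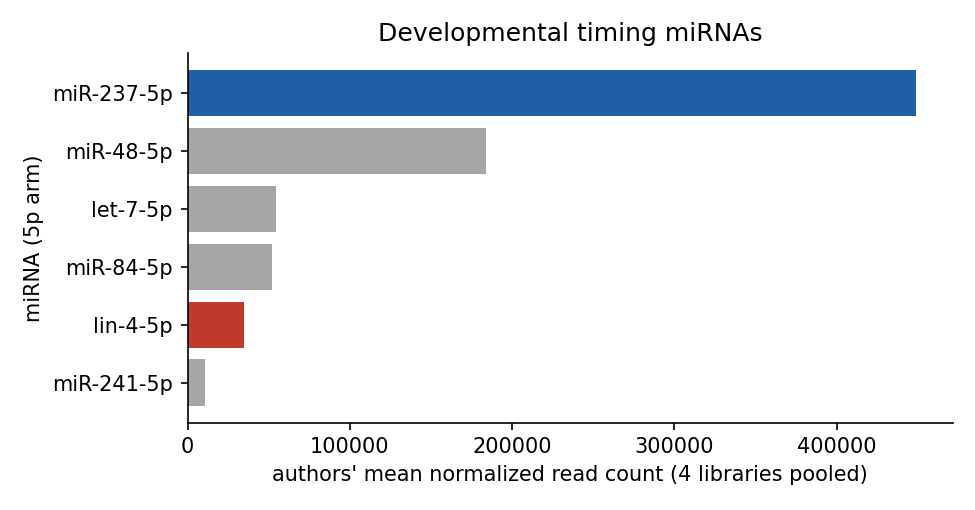
Authors' mean normalized read count (CTRL and HS libraries pooled, linear axis from 0) of the 5p arms of 6 developmental timing miRNAs. miR-237-5p (blue) exceeds each of the others and lin-4-5p (red) is the second lowest bar; the bars have no error because only pooled means were used.

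The material was labelled as whole animals at the last larval stage, and miRNAs known from separate tissues were all listed. miR-1-3p, known from body muscle, had a mean normalized count of 8318, and miR-35-3p, known from the germline and embryo, had 13420.4. The hairpins of miR-36 to miR-40 lie next to that of miR-35 on chromosome II. Their 3p arms were all lower than miR-35-3p and miR-1-3p, from 638 for miR-38-3p to 5836 for miR-37-3p. The level of miR-35-3p therefore does not stand for that group. lsy-6, which acts in a single taste neuron, had 972 and miR-124-3p, known from sensory neurons, had 617. let-7-5p, which builds up late in larval life, was at rank 26.

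The hairpins lie on different chromosomes and in different surroundings (WBcel235 assembly, Ensembl release 115, positions counted from 1). The lin-4 hairpin (WBGene00002993) is at 5902254 to 5902347 on the plus strand of chromosome II. lin-4-5p spans 5902269 to 5902289 and lin-4-3p spans 5902308 to 5902329. It lies within an intron of the protein-coding gene F59G1.4 on the same strand, between exons 9 and 10 of 13 in the transcript that spans it. This intron covers 3938 bp (5898503 to 5902440), and the hairpin sits near its 3′ end, 93 bp before the next exon. On the other strand the annotated non-coding RNA F59G1.10 (5902211 to 5902355) covers the whole hairpin. Whether the counting used strand is not given in the sources used here. Reads from the antisense gene would match the lin-4 arms only if strand was ignored, and this was not tested.

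The miR-237 hairpin (WBGene00003330) is at 8154084 to 8154182 on the plus strand of chromosome X, outside protein-coding genes. miR-237-5p spans 8154099 to 8154121 and miR-237-3p spans 8154136 to 8154157. Its protein-coding neighbours are F22F1.2, which ends 3362 bp before it on the minus strand, and hil-3, which begins 4986 bp after it on the plus strand. hil-3 encodes a linker histone H1. The hairpin sits among transfer RNA genes, of which 9 lie within 5000 bp and the nearest is 262 bp away. Of the 130 listed hairpins that could be placed, 8 had any transfer RNA gene within this distance, and miR-237 was the only one with as many as 9. lin-4 had none, its nearest being 119971 bp away. Of the 130, 83 lie outside protein-coding genes like miR-237, and 30 lie in an intron on the same strand like lin-4.

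Neither hairpin had a close neighbour among the listed miRNAs. The nearest listed hairpin was miR-1822 at 113186 bp for lin-4 and miR-784 at 79074 bp for miR-237. Summed over both arms, lin-4 was at rank 6 of the 25 listed hairpins on chromosome II, with 35073.1 mean normalized counts or 1.21% of that chromosome's total, and the most abundant there was miR-72. miR-237 was at rank 2 of the 46 on chromosome X, behind miR-82, with 449795 or 18.8% of the total. The median hairpin of chromosome X had 2946 and that of chromosome II had 4457.

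The annotated hairpins are 94 bp long for lin-4 and 99 bp for miR-237. Lengths in this range were common among the 130 placed hairpins, as in miR-1 (96 bp) and miR-228 (98 bp). In both members the 5p arm starts at base 16 of the hairpin. Of 120 listed hairpins with an annotated 5p arm, 22 share that start. The guide arms differ in length, as lin-4-5p has 21 bases and miR-237-5p has 23. Among 117 hairpins with both arms annotated, 9 have a 5p arm of 21 bases and 46 have one of 23. Both passenger arms have 22 bases, the median annotated length of the listed miRNAs. In lin-4 the arms are 18 bases apart, which is the median of the 117 hairpins. In miR-237 they are 14 bases apart, the smallest distance found in these hairpins, which it shares with 9 others. The largest was 54.

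**Figure D4:**
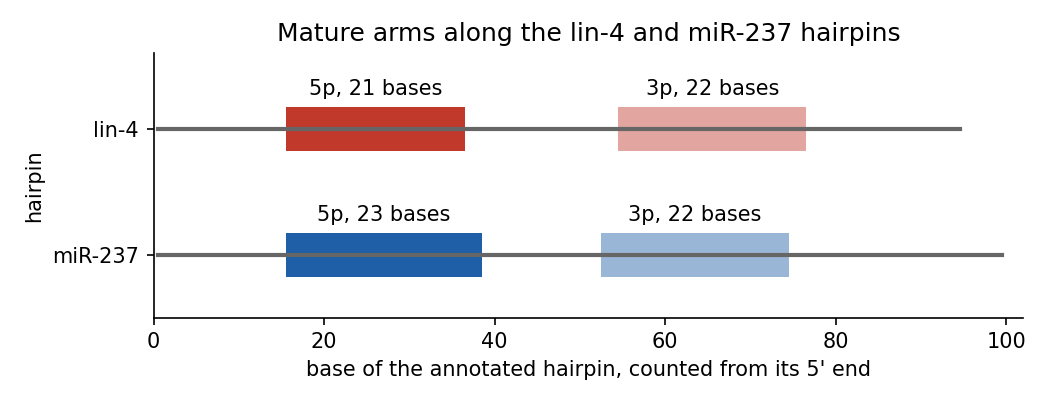
Mature arms drawn to scale along the annotated lin-4 and miR-237 hairpins, in bases from the 5′ end of each hairpin; 5p arms are dark and 3p arms light. Both 5p arms start at base 16, and the stretch between the arms is 18 bases in lin-4 and 14 in miR-237.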

How the data were processed

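The authors prepared small RNA libraries with a TruSeq small RNA kit, mapped reads to *C. elegans* miRNAs and ran DESeq2 on 2 biological replicates per group, grouped here by sample title. The aligner, the miRNA reference, the treatment of multiply matching reads and the DESeq2 version are not given in the sources used here. The deposited signal per miRNA is the authors' mean of size-factor normalized counts, with all 4 libraries pooled. It is not scaled to length, and closely related miRNAs can share reads. The table's other 2 value columns hold the authors' own fold change of HS over CTRL and its adjusted significance. They were not used, so no test could be run.

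Ranks, shares and ratios were computed in Python 3.11.15 with pandas 2.3.3, without a filter or pseudocount, and checked on a table with known ratios. The more abundant arm of a hairpin was taken as the guide. Hairpins were placed by name (127) or by RefSeq coordinates (3) of 132, on the annotation of the WBcel235 assembly. The study names the corresponding WS235 genome for its long RNA reads only. Seeds, sequences and target sites were not analysed here. Neighbours in the order of levels or arm ratios and 2 fixed lists (timing miRNAs, tissue and stage miRNAs) set which other miRNAs were named. Members and lists were chosen with earlier results of these data known.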

Additional observations from a re-analysis of the deposited data

How the results depend on the processing

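Levels were recomputed without the most abundant miRNA, over miRNAs with a mean normalized count of at least 1000, over guide and unpartnered arms alone, per base of mature length, with both arms summed, with 50 added to each level, and over hairpins with both arms at 100 or more. All 29 values obtained stayed within 1.5 times the reported ones, a limit set here because no spread was available. Several settings could change a value only slightly by arithmetic, such as 50 added to a guide level or division by similar lengths. Staying within the limit therefore says little about stability. The ratio of miR-237-5p to lin-4-5p ranged from 11.9 to 13.0. Ranks per base of length were taken over the 194 miRNAs with an annotated length. The minimum of 1000 gives no share for either 3p arm, which fall below it. No paired analysis was possible because only a mean over all libraries was used, and single replicates could not be left out. Seed families and matches in UTRs were not run, as no sequence was analysed.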
